A study of Mus musculus with 12 samples.

Results

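Stages II-IV and stages VIII-IX lie at opposite points of the cycle of the seminiferous epithelium, and 2 whole-testis arrays of each, 4 of the 12 arrays in the series, were compared here by their group labels. All samples were testes of adult male mice of a mixed 129 and C57BL6 background whose spermatogenesis had been synchronized. The neonates were given WIN 18,446, an inhibitor of retinoic acid synthesis, at 100 ug/g once a day for 7 days between 2 and 8 days postpartum (dpp), and 200 ug of retinoic acid (RA) at 9 dpp. They recovered for 43 to 49 days, and stages were assigned from testis morphology. The II-IV and VIII-IX samples share this treatment in full and differ in the stages assigned. No untreated testis is among the samples used here. Nothing in the labels tells whether different mice supplied the 2 samples of a group, and p-values therefore reflect sample-to-sample spread alone, part or all of which may be technical. Neighbouring groups share a stage by label: II-IV overlaps IV-VI, and VIII-IX overlaps IX-XI. The arrays read whole tissue, so fewer cells of a type and less RNA per cell cannot be told apart in any value given here.

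The cycle is the recurring order of germ cell associations that a cross-section of a tubule passes through. In the textbook description, stages II-IV hold dividing spermatogonia, pachytene spermatocytes, young round spermatids and elongated spermatids near the end of condensation. Around stages VIII and IX, spermatogonia that have begun to differentiate and preleptotene spermatocytes that enter meiosis respond to RA, mature sperm are released, and round spermatids start to elongate. RA is made from retinol in 2 oxidation steps, by retinol dehydrogenases and then by retinal dehydrogenases, and is degraded by CYP26 enzymes. Its receptors bind DNA at direct repeats, and Stra8, a gene needed for meiotic entry, is among its best known targets in germ cells.

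A total of 2619 of 19946 measured genes, 13.1%, differed between the groups at an adjusted p under 0.05 in limma, a linear model with a moderated estimate of the spread. They are termed called below. Of these, 1238 (6.21% of all genes) were higher in VIII-IX and 1381 (6.92%) were lower. At least 2-fold differences numbered 382 higher and 347 lower, at least 4-fold differences 76 and 66, and at least 8-fold differences 13 and 12. The median size of a called difference was 0.72 log2, and the median difference over all genes was -0.025 log2. The samples of the groups did not overlap for any called gene, nor did they for 49.2% of all genes. Leaving out 1 of these 4 arrays could therefore reverse no called difference. In such fits the median ratio of a called difference to its full size was 0.96 to 1.04. The median SE of the called genes rose from 0.151 to 0.180 or 0.182. The number of calls rested strongly on single arrays: it was 1012 without II-IV sample 1, 1132 without VIII-IX sample 2 and 209 without VIII-IX sample 1, of which 70 were higher and 139 lower. Only 67 of the genes called higher and 110 of those called lower passed in all 4 fits that left out one of these arrays. With only these 4 arrays in the fit 1193 genes were called, with array weights 1106, and with sample 2 of both VIII-IX and IX-XI left out 317.

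**Figure D1:**
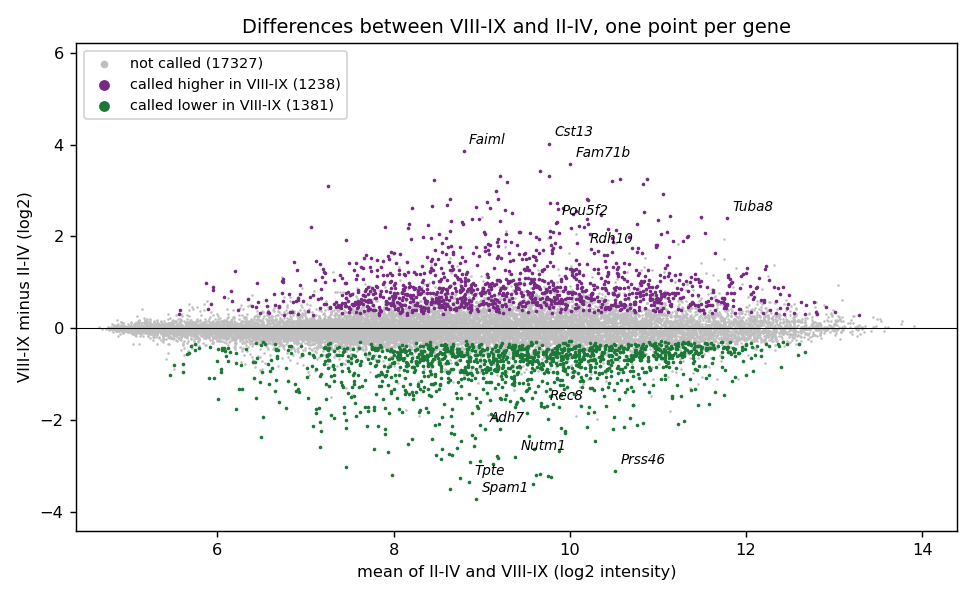
Each point is 1 of 19946 genes, with the mean log2 intensity of II-IV and VIII-IX on the x axis and the log2 difference VIII-IX minus II-IV on the y axis. The 1238 genes called higher (purple) and 1381 called lower (green) spread over the range of levels, from Cst13 at 4.02 to Spam1 at -3.71.

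On the arrays as a whole, the VIII-IX samples resembled each other (r = 0.992 over all genes) and the II-IV samples did so less (r = 0.987), while pairs across the groups had r from 0.964 to 0.972. The closest array to II-IV sample 1 was one of IV-VI (r = 0.998), and the closest to II-IV sample 2 was one of XII-I (r = 0.998). Both VIII-IX samples lay closest to the same IX-XI array (r = 0.995 each). These correlations are across genes, which are not independent replicates. The testis label matched the arrays: Prm2, the protamine of condensing spermatids, read 13.69 and 13.72 in II-IV and 13.81 and 13.79 in VIII-IX. Within II-IV, 246 genes differed at least 2-fold between the samples, 194 of them higher in sample 1. Within VIII-IX, 61 genes did, 59 of them higher in sample 1. Within XII-I, whose arrays enter only the spread of the fit, 264 genes did. Tnp1, a transition protein that replaces histones in spermatids, was at 10.63 and 12.62 on the II-IV arrays and at 13.03 and 12.98 on the VIII-IX arrays. It read 10.65 and 9.74 in IV-VI, near II-IV sample 1, and 12.91 and 12.61 in XII-I, near II-IV sample 2. The part of such gaps between samples of a group in the results was not tested beyond the fits without each array.

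Among the genes higher in VIII-IX, named by size of difference with predicted genes passed over, the largest differences reached about an order of magnitude. Cst13, a member of the cystatin family of protease inhibitors, read 8.43 and 7.08 (log2 intensity) in II-IV and 11.86 and 11.70 in VIII-IX, a difference of 4.02 ± 0.94 log2 (SE; 16.3-fold; adjusted p = 0.025 in limma). Its II-IV samples lay further apart than its VIII-IX samples, and it was called in 0 of the 4 fits that left out an array. Faiml, related to a Fas apoptosis inhibitor, read 7.15 and 6.59 against 10.81 and 10.63 (14.5-fold; 3.85 ± 0.62 log2; adjusted p = 0.0085; called in 3 of the 4 fits). Fam71b, a Golgi-associated protein that binds RAB2 proteins, read 8.72 and 7.69 against 11.88 and 11.69 (11.9-fold; adjusted p = 0.014; called in 1 of the 4 fits). The groups were far apart in all 3 genes, and of these 2 groups II-IV had the wider gap between samples. The gap was wider still in XII-I, whose arrays also enter the spread of the fit. There Cst13 read 10.44 and 7.00, Faiml 9.00 and 6.68, and Fam71b 10.41 and 7.90.

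Fhdc1, a formin that acts on actin and microtubules, was 10.8-fold higher, at 8.27 and 7.62 against 11.44 and 11.30 (adjusted p = 0.022; 0 of the 4 fits). Trim42, of the tripartite motif family, read 7.54 and 7.56 against 11.06 and 10.68, a difference of 3.32 ± 0.57 log2 (adjusted p = 0.010; 3 of the 4 fits). Glt6d1, a glycosyltransferase-like protein, read 7.63 and 7.78 against 11.06 and 10.70 (9.05-fold; adjusted p = 0.0081; 3 of the 4 fits). In Trim42 and Glt6d1 the II-IV samples lay closer together than the VIII-IX samples. The serine protease gene Prss52 read 9.13 and 9.36 against 12.46 and 12.54 (9.54-fold; adjusted p = 0.017), and Trp53tg5 read 9.60 and 9.59 against 12.54 and 12.51 (7.62-fold; adjusted p = 0.014). Both were called in 1 of the 4 fits, and samples nearly coincided within II-IV and within VIII-IX. The spread of the fit is drawn from all 12 arrays, and other groups had wide gaps. In XII-I, Prss52 read 11.96 and 9.53, and Trp53tg5 read 11.79 and 9.69. Zc2hc1b, a zinc finger protein, and Dcdc2c, a doublecortin family protein that binds microtubules, were the leading genes called in all 4 fits. Zc2hc1b read 6.74 and 6.96 against 10.36 and 9.77 (9.31-fold; 3.22 ± 0.37 log2; adjusted p = 0.0049). Dcdc2c read 9.11 and 8.50 against 11.68 and 11.53 (6.95-fold; 2.80 ± 0.23 log2; adjusted p = 0.0020). The other genes of the leading 15 were Mgat4f, of a glycosyltransferase family (3.32 log2), Spata31d1c (3.24), Plbd1, a phospholipase B-like protein (3.20), Fam71a (3.13) and Cd109, a surface protein that binds TGF-beta (2.81), and Spata31d1c has close relatives whose transcripts its probe set may also read.

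**Figure D2:**
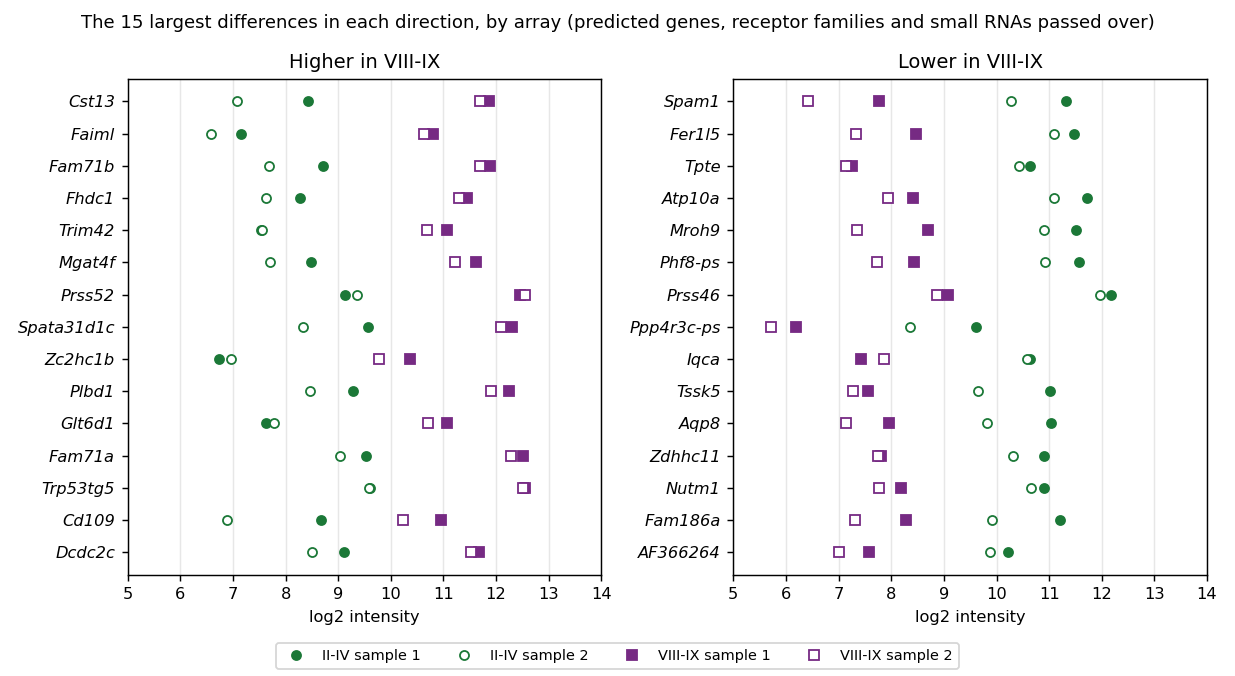
The x axes give log2 intensity and each row is a gene, for the 15 largest called differences higher (left) and lower (right) in VIII-IX with predicted genes, receptor families and small RNAs passed over. Circles are the II-IV samples, squares the VIII-IX samples (filled for sample 1, open for sample 2), and the groups lie apart in every row, from Cst13 with a difference of 4.02 to AF366264 with -2.75.

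With predicted genes and receptor families passed over, Spam1, Fer1l5 and Tpte had the largest differences among the genes lower in VIII-IX. Spam1, the hyaluronidase of the sperm surface, read 11.32 and 10.27 in II-IV against 7.76 and 6.41 in VIII-IX, a log2 difference of -3.71 ± 0.69 (SE; 13.1-fold lower; adjusted p = 0.012 in limma). Samples of both groups lay well apart from their partner, and the call held in 1 of the 4 fits. Fer1l5, of the ferlin family of membrane fusion proteins, read 11.48 and 11.09 against 8.46 and 7.32 (10.5-fold lower; adjusted p = 0.010; 2 of the 4 fits). Atp10a, a phospholipid flippase, read 11.71 and 11.09 against 8.41 and 7.93 (9.41-fold lower; adjusted p = 0.0082; 3 of the 4 fits). Aqp8, a water channel, read 11.03 and 9.82 against 7.96 and 7.13 (7.37-fold lower; adjusted p = 0.013; 1 of the 4 fits). Tssk5, of a kinase family made in spermatids, read 11.01 and 9.64 against 7.56 and 7.27 (7.54-fold lower; adjusted p = 0.017; 1 of the 4 fits). For Aqp8 and Tssk5, II-IV sample 1 was the higher of its pair by a wide gap.

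Several genes lower in VIII-IX were called in all 4 fits. Tpte, a membrane protein with a voltage sensor and a phosphatase-like domain, read 10.64 and 10.42 against 7.26 and 7.13 (10.1-fold lower; -3.34 ± 0.38 log2; adjusted p = 0.0049). Prss46, a serine protease, read 12.17 and 11.96 against 9.07 and 8.86 (8.58-fold lower; -3.10 ± 0.32 log2; adjusted p = 0.0049). Nutm1, which promotes histone hyperacetylation in spermatids together with p300, read 10.90 and 10.66 against 8.18 and 7.77 (6.99-fold lower; adjusted p = 0.0067). Iqca, a flagellar protein with a calmodulin-binding motif, read 10.63 and 10.58 against 7.43 and 7.87 (7.77-fold lower; adjusted p = 0.0062). Other Iqca probe sets gave -2.91, -3.34 and, in the dimmest, -0.44, which was not called. In these 4 genes the gap within a group was small beside the gap between groups. AF366264 (6.73-fold lower; adjusted p = 0.0050) and Phf8-ps (8.93-fold lower; adjusted p = 0.0078) were also called in all 4 fits, and the latter, named as a pseudogene, may share probes with its parent gene. The leading 15 were completed by Mroh9 (-3.19 log2), Ppp4r3c-ps (-3.02), Zdhhc11, of the palmitoyltransferase family (-2.83), and Fam186a (-2.77), whose other probe set gave -0.86 (adjusted p = 0.03).

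Rdh10 and Stra6, which act on retinol before it becomes RA, were higher in VIII-IX, as was Cyp26a1, while Adh7 and Crabp1 were lower. Rdh10, which oxidizes retinol to retinal, read 9.25 and 8.89 in II-IV against 11.39 and 11.14 in VIII-IX (4.58-fold higher; 2.20 ± 0.31 log2; adjusted p = 0.0070 in limma). Stra6, the membrane receptor that imports retinol, read 8.23 and 8.13 against 9.56 and 9.17 (2.28-fold; adjusted p = 0.011). Cyp26a1, which degrades RA, read 6.32 and 6.37 against 7.29 and 6.93 (1.70-fold; 0.76 ± 0.15 log2; adjusted p = 0.015). In all 3 genes both VIII-IX samples exceeded both II-IV samples. Adh7, an alcohol dehydrogenase active on retinol, read 10.16 and 10.10 against 7.80 and 8.07 (4.56-fold lower; -2.19 ± 0.31 log2; adjusted p = 0.0068). Crabp1, a cytoplasmic RA binding protein, read 10.79 and 10.71 against 9.85 and 10.03 (1.76-fold lower; adjusted p = 0.0078). Their II-IV samples nearly coincided.

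Of 24 measured genes of retinoid uptake, synthesis and degradation, 3 were called higher (those above) and 2 lower, Adh7 and Rdh12 (-0.37 log2), which is 20.8% called, and the list's median was -0.039 log2. Of 13 binding proteins, receptors and direct targets, Stra8 and Rarb were called higher and Crabp1 lower, or 23.1% against 13.1% of all genes, with a median of 0.076 log2. Stra8, a factor that drives meiotic entry, read 6.95 and 7.18 against 8.47 and 8.31 (2.51-fold; 1.33 ± 0.19 log2; adjusted p = 0.0070). Rarb, the RA receptor beta, itself a target of RA, read 7.22 and 7.45 against 8.21 and 8.07 (1.75-fold; adjusted p = 0.038). The enzymes that complete RA synthesis were not called: Aldh1a1, a retinal dehydrogenase of Sertoli cells, differed by -0.38 log2 (adjusted p = 0.27) and Aldh1a2, one of germ cells, by -0.01 (adjusted p = 0.98). Neither were Cyp26b1 (-0.16; adjusted p = 0.33) nor the receptors Rara (0.12; adjusted p = 0.60) and Rarg (-0.09; adjusted p = 0.62). The first list had 3 calls without II-IV sample 1. With VIII-IX sample 1 left out, 0 members of either list were called, at differences such as 2.07 for Rdh10 (adjusted p = 0.053), 1.24 for Stra8 (adjusted p = 0.053) and -2.05 for Adh7 (adjusted p = 0.052).

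**Figure D3:**
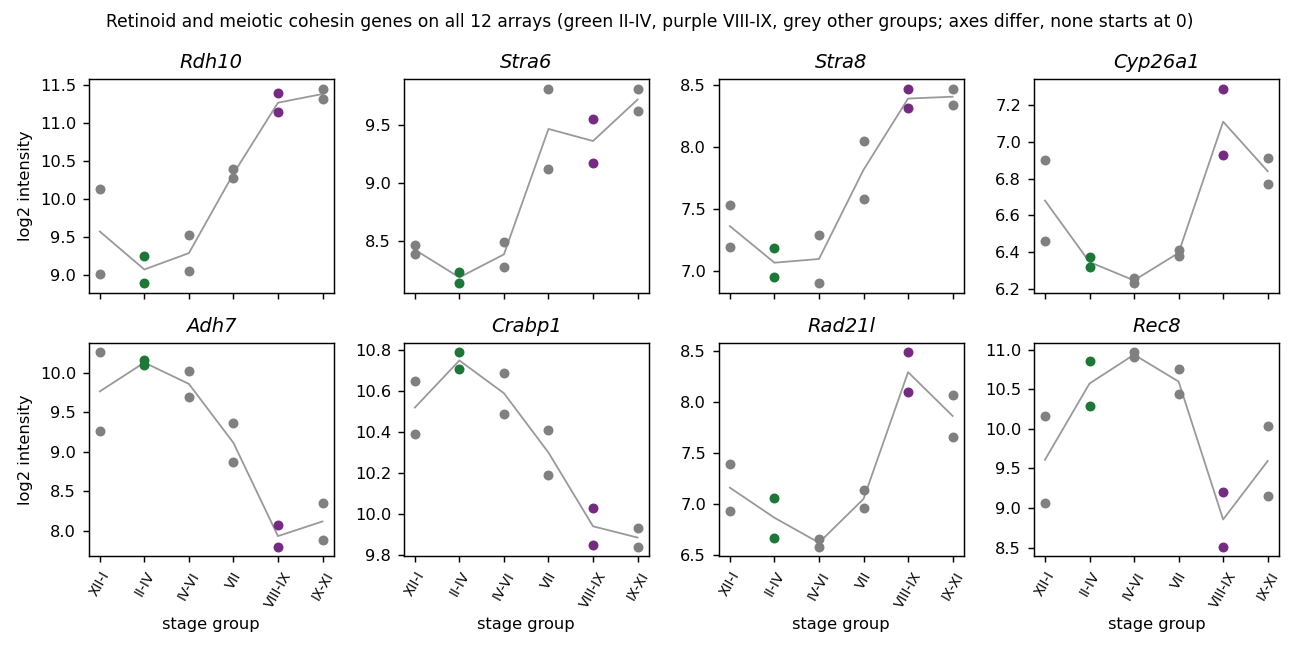
Log2 intensity (y axes, with different ranges) of 8 genes in each of the 6 stage groups in the order of the cycle (x axes), with a point per array and a line through group means. Green points are II-IV and purple points VIII-IX, and Rdh10, Stra6, Stra8, Cyp26a1 and Rad21l are higher in VIII-IX while Adh7, Crabp1 and Rec8 are lower.

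Promoters from the RefSeq table of GRCm38.p6, from 250 bases before to 50 bases after each gene's start, were searched on both strands. The direct repeat of AGTTCA spaced by 5 bases, a form that RA receptors bind, occurred in 3 of 19184 promoters of measured genes (0.0156%), in 1 of 1299 promoters of genes called higher and in 0 of 1426 of genes called lower. The called gene was Cyp26a1, and the repeat begins 32 bases before its start. The form with AGGTCA occurred in 1 promoter of the measured genes and in 0 of the called ones. The 150 bases upstream of Cyp26a1 are shown because they hold this repeat, read here on its other strand, with both copies of the unit in capitals.
Cyp26a1, chr19:37697658-37697807, plus strand: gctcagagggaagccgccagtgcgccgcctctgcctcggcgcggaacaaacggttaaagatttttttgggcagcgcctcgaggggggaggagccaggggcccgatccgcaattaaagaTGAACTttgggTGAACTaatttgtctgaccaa

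Genes of differentiating spermatogonia were called in both directions. Members of this and the other lists were chosen with earlier results of these data known, and Stra8 and Crabp1 are also in a retinoid list. Of 19 measured members, 5 were called higher and 4 lower, 47.4% against 13.1% of all genes, and the list's median was 0.012 log2. Apart from Stra8, the members higher in VIII-IX were Ugt8a, which makes galactolipids, at 7.71 and 7.39 against 8.91 and 8.64 (1.22 log2), Uchl1, a ubiquitin hydrolase (0.76), and the protease gene Prss50 (0.59). The smallest was Rhox13, an X-linked homeobox gene (0.39). Sohlh2, a transcription factor of early spermatogonial differentiation, was lower, at 9.83 and 9.77 against 8.56 and 8.46 (-1.29 ± 0.19 log2; adjusted p = 0.0070 in limma). Dazl, an RNA-binding protein of germ cells, read 12.02 and 11.88 against 11.14 and 11.10 (-0.82 log2), and Crabp1 and Ccnd1, a cyclin of the G1 phase (-0.55), were also lower. Kit, the receptor that marks differentiating spermatogonia, was not called (-0.25 log2; adjusted p = 0.25). The list had 6 and 6 calls without II-IV samples 1 and 2, and 0 and 5 without VIII-IX samples 1 and 2.

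Of 26 measured genes of undifferentiated spermatogonia, which include the stem cells, 1 was higher and 1 lower, or 7.7%, below the 13.1% of all genes. Lhx1, a homeobox gene that responds to the stem cell factor GDNF, read 7.22 and 7.60 against 8.16 and 8.18 (0.76 log2; adjusted p = 0.0077 in limma), and Bcl6b, another such gene, differed by -0.46 log2. Gfra1, the GDNF receptor (0.06 log2; adjusted p = 0.78), and Zbtb16, a repressor of differentiation (-0.33; adjusted p = 0.057), were not called. Leaving out II-IV samples 1 and 2 in turn gave 3 and 1 calls, and leaving out VIII-IX samples 1 and 2 gave 0 and 2.

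Genes of meiotic entry and early prophase were called more often higher than lower in VIII-IX, with opposite directions between meiotic cohesins. Of 44 measured members, 8 were higher and 4 lower (27.3% called against 13.1% of all genes). Of the 44, 27 lay above 0 and the median was 0.115 log2. That median was 0.012 without II-IV sample 2, 0.270 without II-IV sample 1 and 0.207 without VIII-IX sample 2. Rad21l, a meiotic cohesin subunit, read 6.67 and 7.06 in II-IV against 8.49 and 8.10 in VIII-IX (1.43 log2; adjusted p = 0.0072 in limma), and its other probe set gave 1.41. Rec8, another kleisin of meiotic cohesin, read 10.86 and 10.29 against 9.20 and 8.51 (3.30-fold lower; -1.72 ± 0.40 log2; adjusted p = 0.026), and its call ended without II-IV sample 1 (adjusted p = 0.12), VIII-IX sample 1 (0.069) or VIII-IX sample 2 (0.12). Smc3, a core cohesin subunit of mitosis and meiosis, was also lower (-0.71). Prdm9, the methyltransferase that marks recombination sites, read 7.53 and 7.17 against 8.65 and 8.47 (2.31-fold higher; 1.21 ± 0.20 log2; adjusted p = 0.0084). Terb1, which ties telomeres to the nuclear envelope, read 9.22 and 9.44 against 10.10 and 10.14 (0.79 log2).

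Of the recombination genes, Brca2, which loads recombinases (0.79), Mlh3, of crossover formation (0.78), and Mei1 (0.45) and Mei4 (0.46), of double-strand break formation, were higher. Hormad2, a chromosome axis protein (-0.82), and Ythdc2, an RNA helicase needed to stay in meiosis (-0.53), were lower. Dmc1, the meiotic recombinase (0.46 log2; adjusted p = 0.19), Spo11, which cuts the DNA (0.33; adjusted p = 0.097), and Sycp3, an axis protein (-0.01; adjusted p = 0.98), were not called. For the 44 genes, 6 and 11 were called without II-IV samples 1 and 2, and 0 and 4 without VIII-IX samples 1 and 2.

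The motif CNCCTCAG, described as bound by STRA8, was held by 11.5% of the promoters of genes called higher, 9.89% of those called lower and 8.67% of those of all measured genes. Its matches included Prdm9, higher in VIII-IX, and Sohlh2, lower in VIII-IX. Their 150 bases upstream of the start are shown, on the strand of the gene, since they place the same motif close to the start of genes that differed in opposite directions. The motif is in capitals, and it begins 41 bases before the start in Prdm9 (1 of 2 starts in the table) and 22 bases before it in Sohlh2.
Prdm9, chr17:15564355-15564504, minus strand: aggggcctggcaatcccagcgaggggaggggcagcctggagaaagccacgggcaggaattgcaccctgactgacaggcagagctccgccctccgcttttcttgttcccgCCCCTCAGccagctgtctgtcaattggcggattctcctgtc
Sohlh2, chr3:55181894-55182043, plus strand: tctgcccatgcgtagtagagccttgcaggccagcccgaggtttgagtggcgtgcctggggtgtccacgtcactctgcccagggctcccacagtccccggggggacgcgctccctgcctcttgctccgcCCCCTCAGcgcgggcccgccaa

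Of the other motifs, TGACGTCA, bound by CREB and CREM, was in 2.46% of promoters of genes called higher and 3.23% of those called lower, against 2.37% of all measured. GTTGCC, part of the site of RFX factors, which act on ciliary and spermatid genes, was in 13% and 15.4% against 12.3%. CACGTG, an E-box, was in 9.01% and 8.49% against 8.24%. TGACGCA was in 2.77% and 3.65% against 2.71%, and TGACGTA in 2.16% and 2.1% against 1.61%. Among calls of at least 2-fold, with fewer promoters, the order for TGACGCA reversed, at 3.38% for higher and 1.16% for lower. In that set TGACGTCA was in 1.3% and 2.9%, and GTTGCC in 14.5% and 17.7%. CACGTG was in 7.01% and 5.8% there, and TGACGTA in 1.04% and 1.16%. A match is only the presence of the letters, motifs can overlap, and genes with a start in the table numbered 1001 of 1238 called higher and 1150 of 1381 called lower.

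Cell division genes were also called in both directions. Of 42 measured genes of M phase and meiotic division, 4 were called higher and 7 lower (26.2% against 13.1% of all genes). The median was -0.075 log2, but 0.112 without II-IV sample 2 and 0.120 without VIII-IX sample 1. Cdc25c, the phosphatase that activates CDK1, read 10.19 and 9.94 in II-IV against 8.99 and 8.77 in VIII-IX (-1.18 log2; adjusted p = 0.0073 in limma) and was called in all 4 fits. Cenpe, a kinetochore motor, read 10.40 and 10.82 against 8.95 and 9.71 (-1.28; adjusted p = 0.012), and Plk1, a kinase of M phase entry, read 11.88 and 12.30 against 10.64 and 11.36 (-1.09; adjusted p = 0.026). In both, sample 2 was the higher of each pair. Kif23, a motor of cytokinesis (-0.76), Cks1b, a CDK subunit (-0.66), Ccnb2, a B-type cyclin (-0.58), and Bub1, a checkpoint kinase (-0.49), were also lower. The genes higher in VIII-IX were Ccnb3, a cyclin of meiotic prophase, at 6.78 and 6.99 against 8.28 and 8.69 (1.60 log2), Fbxo43, an inhibitor of the anaphase-promoting complex, at 9.61 and 9.57 against 11.10 and 11.26 (1.59 log2; adjusted p = 0.017), Cdca8 (0.75) and Cks2 (0.52). The list had 5 and 6 calls without II-IV samples 1 and 2, and 2 and 5 without VIII-IX samples 1 and 2.

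Among 40 measured genes of DNA replication, 4 were called higher and 3 lower, or 17.5% against 13.1% of all genes, with a median of 0.002 log2. Ccne2, an S phase cyclin, read 9.57 and 8.57 against 10.32 and 9.85 (1.02 log2), and Gmnn, a licensing inhibitor (0.81), Lig1, a DNA ligase (0.58), and Chaf1b, a chromatin assembly subunit (0.55), were higher too. The helicase subunits Mcm7 and Mcm2 were lower: Mcm7 read 11.56 on both II-IV arrays against 11.06 and 11.13 (-0.47 log2), and Mcm2 differed by -0.37 (adjusted p = 0.044 in limma). The ribonucleotide reductase subunit Rrm2 differed by -0.60. Leaving out II-IV samples 1 and 2 in turn gave 4 and 5 calls, and leaving out VIII-IX samples 1 and 2 gave 0 and 1.

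Of 27 measured genes of pachytene and diplotene spermatocytes, 3 were higher and 1 lower, or 14.8%, close to the 13.1% of all genes. Pou5f2, a POU domain factor of spermatocytes, read 8.48 and 8.92 against 10.88 and 11.10 (2.30 log2; 4.91-fold; adjusted p = 0.017 in limma), and Calr3, a testis calreticulin, read 9.26 and 8.71 against 11.22 and 11.20 (2.23 log2). Spag6, a protein of the flagellar central pair, was lower, at 12.49 and 12.08 against 10.91 and 10.33 (-1.66 log2). Germ cell isozymes of this and later cells were not called: Ldhc, the lactate dehydrogenase of germ cells, read 13.40 and 13.35 against 13.60 and 13.57 (0.21 log2; adjusted p = 0.11), and Pgk2, a phosphoglycerate kinase, differed by 0.02 (adjusted p = 0.95). Of 28 genes of germ cell glycolysis and energy isozymes, limma called 0, and 8 had an unadjusted p below 0.05. Of the 27 spermatocyte genes 0 were called in the fits that omitted either VIII-IX sample.

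Of 53 measured genes of the sperm tail, 10 were called lower in VIII-IX and 4 higher (26.4% called against 13.1% of all genes). The lean lay in the calls alone, since the median was -0.010 log2 against -0.025 for all genes, and 24 of 53 lay above 0. Fsip1, a fibrous sheath interacting protein, followed Iqca in size of difference, at 11.44 and 11.09 in II-IV against 9.32 and 8.94 in VIII-IX (-2.14 log2; adjusted p = 0.0068 in limma). Spag6 (-1.66), Armc4, of the dynein arms (-1.13), the tektins Tekt4 (-0.83), Tekt3 (-0.62) and Tekt1 (-0.45), and the axonemal dynein chains Dnah10 (-0.80) and Dnaic1 (-0.34) were lower, as was Ccdc65 (-0.38). A tektin and a dynein chain went the other way: Tekt5 read 11.80 and 11.29 against 13.00 and 12.80 (1.35 log2), and Dnah2 was higher by 0.78. Akap3, a fibrous sheath anchor of protein kinase A (0.75), and Spata19, a mitochondrial protein of the midpiece (0.58), were higher. The list had 3 calls when VIII-IX sample 1 was left out, 5 when VIII-IX sample 2 was and 7 when II-IV sample 1 was.

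In the list of the acrosome and round spermatid, 5 of 42 measured genes were higher and 1 lower, or 14.3%, close to the 13.1% of all genes. The higher ones were Fam71b, Cylc1, a calyx protein of the sperm head, at 9.66 and 9.03 against 10.66 and 10.64 (1.30 log2), Fam71f1 (0.88), Sppl2c, an intramembrane protease (0.88), and Gopc, a Golgi protein of acrosome formation (0.82), and Spam1 was the lower one. Acrv1, an acrosomal matrix protein, differed by -0.04 log2 (adjusted p = 0.97 in limma). Of 36 genes of the manchette and spermatid elongation, Gmcl1, a nuclear envelope protein, was higher (1.01), and Spag6, Ift88, of intraflagellar transport (-0.59), and Mns1 (-0.52) were lower, in all 11.1%. The acrosome list had 2 and 3 calls without II-IV samples 1 and 2, and 0 and 0 without VIII-IX samples 1 and 2. The manchette list had 2, 2, 0 and 1 in the same order.

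Chromatin condensation genes had a list median of 0.195 log2, above the -0.025 of all genes, with 17 of 24 measured members above 0. The median was 0.111 without II-IV sample 1, 0.311 without II-IV sample 2 and 0.081 without VIII-IX sample 1. Singly, 2 were called higher and 3 lower (20.8% against 13.1% of all genes). Hils1, a spermatid linker histone, read 11.68 and 11.12 in II-IV against 12.65 and 12.54 in VIII-IX (1.20 log2; adjusted p = 0.041 in limma; 0 of the 4 fits), and Camk4, a kinase of spermatid chromatin, was higher by 0.72. Nutm1, Tdrd7, of germ granules (-0.63), and Top2b, a topoisomerase (-0.45), were lower. The transition proteins and protamines were not called: Tnp1 differed by 1.38 ± 0.53 log2 (adjusted p = 0.12), Tnp2, at 11.96 and 13.17 against 13.50 and 13.52, by 0.94 (adjusted p = 0.086), Prm1 by 0.26 (adjusted p = 0.45) and Prm2 by 0.09 (adjusted p = 0.53). For Tnp1 and Tnp2, II-IV sample 1 was far below its partner. As for Tnp1, the Tnp2 level of sample 1 was near IV-VI (11.93 and 11.44) and that of sample 2 near XII-I (13.36 and 13.18). Without II-IV sample 2, both were called, at 2.37 and 1.55 log2 (adjusted p = 0.017 each in limma), and without II-IV sample 1 they differed by 0.39 (adjusted p = 0.52) and 0.33 (adjusted p = 0.33). Calls numbered 3 and 4 without II-IV samples 1 and 2, and 1 and 3 without VIII-IX samples 1 and 2.

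Of 34 measured genes of protein turnover and cytoplasm removal in late spermatids, 7 were called higher and 2 lower (26.5% against 13.1% of all genes). The median was 0.048 log2, with 18 of 34 above 0. Fbxo39, an F-box protein, read 9.52 and 9.63 against 12.14 and 12.08 (2.54 log2; 5.81-fold; adjusted p = 0.012 in limma), with samples close within both groups. Rnf148, a ring finger protein, read 10.82 and 9.62 against 12.20 and 12.07 (1.91), and Asb17 (1.18), Asb9 (1.13), Capza3, an actin capping subunit of sperm (0.78), Psme3, a proteasome activator (0.73), and Ube2b, a ubiquitin-conjugating enzyme needed for sperm formation (0.34), were higher. The ubiquitin ligases Herc2 (-0.44) and Marchf7 (-0.53) were lower. The list had 7 and 5 calls without II-IV samples 1 and 2, and 0 and 2 without VIII-IX samples 1 and 2.

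Of 40 measured regulators of transcription and translation in spermiogenesis, 3 were higher and 1 lower, below the share of all genes. Hsf2, a heat shock factor of spermatocytes and spermatids, read 11.37 and 11 against 9.74 and 8.98 (-1.83 log2; adjusted p = 0.012 in limma), and Fhl5, a coactivator of CREM, read 11.57 and 10.88 against 12.48 and 12.26 (1.15). Sox30, a transcription factor of meiotic exit (0.51), and Ybx1, an mRNA-binding protein (0.34; its other probe set, at 0.24, was not called), were higher. Among 24 genes of the piRNA pathway, 16.7% were called, near the 13.1% of all genes. Pld6 (0.60) and Gtsf1 (0.42) were higher, and Mov10l1, an RNA helicase (-0.69), and Tdrd7 were lower. Of 20 ion channel and motility genes 1 was called higher (5.0%, below the share of all genes), Ppp3r2, the testis calcineurin subunit (0.87). With II-IV samples 1 and 2 and VIII-IX samples 1 and 2 left out in turn, 2, 3, 1 and 0 regulators and 6, 2, 0 and 4 piRNA genes were called.

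**Figure D4:**
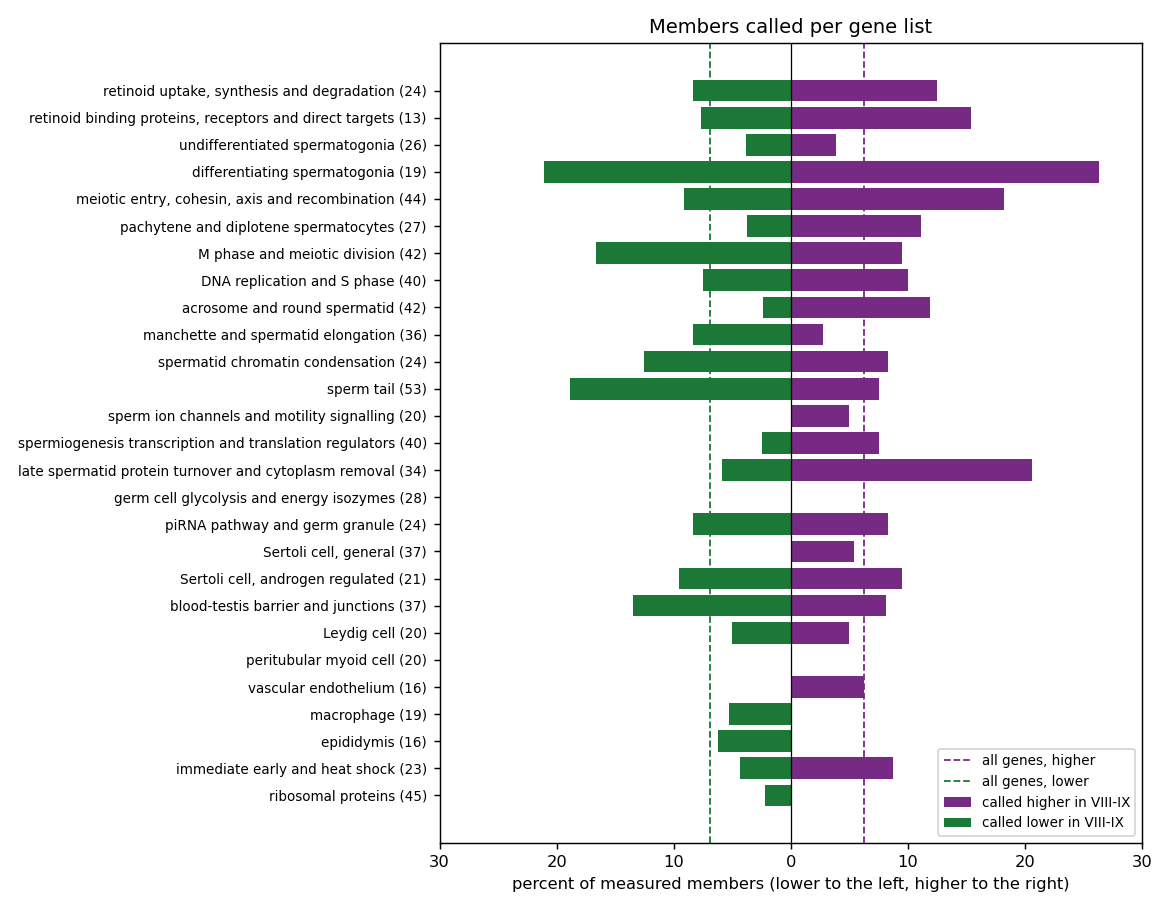
Bars give the percent of measured members of each of 27 gene lists (number measured in brackets) called lower (left, green) or higher (right, purple) in VIII-IX, with dashed lines at 6.92% and 6.21% for all genes. Differentiating spermatogonia had the largest total, 47.4%, and the glycolysis and peritubular myoid lists had 0 calls. Lists were chosen with earlier results of these data known, and some genes are in several lists.

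The Sertoli cell list had a smaller share of calls than all genes, and the androgen regulated Sertoli and junction lists a larger one. Of 37 measured Sertoli cell genes, 2 were called, both higher (5.4% against 13.1% of all genes), and the mean level of the list was 9.96 and 9.92 in II-IV and 10 and 9.92 in VIII-IX. Tuba8, a tubulin, read 10.72 and 10.46 against 13.04 and 12.95 (2.40 log2), and Plat, tissue plasminogen activator, read 7.96 and 7.84 against 9.52 and 9.19 (1.45). The Sertoli list had 0 and 0 calls without II-IV samples 1 and 2, and 0 and 1 without VIII-IX samples 1 and 2. It had at most 4 in any alternative fit. Its mean level was 9.88 and 10.33 in VII samples 1 and 2, a gap that enters the spread of the fit. The defining genes of the cell were not called: Sox9 differed by -0.09 log2 (adjusted p = 0.75 in limma), Wt1 by 0.13 (0.53), Gata4 by -0.29 (0.15), Amh by 0.07 (0.78), Fshr by -0.19 (0.56), Clu by -0.10 (0.73), Trf by 0.00 (1) and Ctsl by -0.05 (0.88). Sertoli genes known to respond to androgen had 4 calls among 21, or 19.0%: Cldn13, a claudin, at 7.51 and 7.59 against 9.19 and 8.21 (1.15), and Tubb3 (0.70) were higher, and Aqp8 and Espn, an actin bundling protein (-0.50), were lower. This list had 0, 3, 0 and 1 calls in the same order.

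Of 37 measured genes of the blood-testis barrier and junctions, 3 were higher and 5 lower, or 21.6% against 13.1% of all genes. Jup, plakoglobin of desmosomes and adherens junctions, read 10.08 and 9.15 in II-IV against 12.17 and 11.63 in VIII-IX (2.28 log2; adjusted p = 0.015 in limma), and Nectin2, an adhesion protein of the Sertoli-spermatid junction, was higher by 0.97. Jup's relative Ctnnb1, beta-catenin (-0.53), the scaffold Tjp1 (-0.58) and Marveld3, of tight junctions (-0.46), were lower. The remaining calls were Cldn13, higher, and Aqp8 and Espn, lower. They are also calls of the androgen regulated Sertoli list, so the shares of these lists rest partly on the same genes. Leaving out II-IV samples 1 and 2 in turn gave 1 and 4 calls, and leaving out VIII-IX samples 1 and 2 gave 0 and 2.

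Interstitial and vascular lists had smaller shares of calls than the 13.1% of all genes. The spread in the fit is drawn from all 12 arrays, and these lists read higher in VII sample 2 than in VII sample 1. Their means were 10.16 against 9.59 for Leydig, 9.17 against 8.87 for myoid, 8.26 against 8.02 for endothelial and 9.19 against 8.29 for macrophage genes. Such a gap widens the spread. In alternative fits, those without a VII array included, at most 2, 0, 2 and 3 members were called. Of 20 Leydig cell genes, Scarb1, a lipoprotein receptor, was higher (0.71) and Sult1e1, a sulfotransferase, lower (-0.95), while the steroidogenic genes Star (-0.59; adjusted p = 0.28 in limma) and Cyp17a1 (-0.24; adjusted p = 0.42) were not called. The Leydig list had 0, 0, 0 and 1 calls without II-IV samples 1 and 2 and VIII-IX samples 1 and 2 in turn. Its mean was 9.57 and 9.56 in II-IV and 9.48 and 9.39 in VIII-IX. Peritubular myoid genes had 0 calls among 20 in limma and 0 at an unadjusted p under 0.05, with Acta2 at -0.04 log2 (adjusted p = 0.88). Of 16 endothelial genes Egfl7 was higher (0.59), and of 19 macrophage genes Adgre1 was lower (-0.91). Epididymis markers, which report tissue taken along with the testis, included 4 of 16 at a log2 intensity under 6 on all 4 arrays, and their mean level was 7.18 and 7.23 in II-IV and 7.03 and 7.24 in VIII-IX. Their one call, Ces5a, at 9.56 and 8.82 against 7.26 and 7.57 (-1.78), was not shared by its other probe set (-0.07). Of 23 immediate early and heat shock genes, which respond to tissue handling, Jund (1.20) and Hspa1a (0.58) were higher and Fosl1 (-0.52) lower (13.0% called). Of 45 ribosomal protein genes 1 was lower (2.2%).

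X-linked genes are silenced in pachytene spermatocytes and partly expressed again in spermatids. Among 742 of them, 43 were called higher and 77 lower (16.2% against 13.1% of all genes). Their median was -0.056 log2 against -0.025 for all genes. Cfap47, a cilia and flagella protein, read 9.73 and 9.98 in II-IV against 7.20 and 7.02 in VIII-IX (-2.75 log2; adjusted p = 0.0041 in limma), Ssxb2 read 8.39 and 8.51 against 5.70 and 6.04 (-2.58), and Dusp21, a phosphatase, read 8.77 and 7.41 against 10.81 and 10.40 (2.51). The X-linked list had 17 calls when VIII-IX sample 1 was left out, 44 when VIII-IX sample 2 was and 52 when II-IV sample 1 was. Of 9 Y-linked genes, Zfy2, a zinc finger factor, was higher (0.90), and Srsy, at 11.98 and 12.56 against 10.28 and 10.09 (-2.08), and Uba1y, a ubiquitin-activating enzyme (-0.64), were lower. Ssxb2 and Srsy belong to multicopy families, so their probe sets may read several copies.

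The called genes were then followed over the 8 arrays of the other groups, which enter the spread of the fit but not the difference between II-IV and VIII-IX. Of the 1238 genes higher in VIII-IX, 867 (70.0%) had their highest mean there and 360 (29.1%) in IX-XI. Their lowest mean was in II-IV for 645 (52.1%), in IV-VI for 434 (35.1%) and in XII-I for 120 (9.7%). Of the 1381 genes lower in VIII-IX, 995 (72.0%) were lowest there and 328 (23.8%) in IX-XI, and the highest mean was in II-IV for 630 (45.6%), IV-VI for 463 (33.5%) and XII-I for 264 (19.1%). The choice of genes favours VIII-IX and II-IV as extremes, and pairs of the remaining groups were compared next. These pairs are not free of that choice. IX-XI and IV-VI share a stage by label with VIII-IX and II-IV. The closest arrays to II-IV samples 1 and 2 were of IV-VI and XII-I (r = 0.998 each). The shares below therefore give no separate support to the calls. IX-XI exceeded XII-I in 1134 (91.6%) of the genes called higher and in 97 (7.0%) of those called lower, against 55.1% of all genes, with medians of 0.44, -0.40 and 0.03 log2. Likewise VII exceeded IV-VI in 94.0%, 3.8% and 46.4%, with smaller medians of 0.24, -0.24 and -0.01. All groups were normalized together, and no test was made of these shares.

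Stra8 and Rdh10 followed this course, near their II-IV level in IV-VI and near their VIII-IX level in IX-XI. Cyp26a1 and Rad21l were near their low level from II-IV through VII, and Rec8 was high from II-IV through VII, as the plot of retinoid and cohesin genes shows. In XII-I, Cyp26a1 read 6.90 and 6.46, and Rec8 read 9.06 and 10.16.

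**Figure D5:**
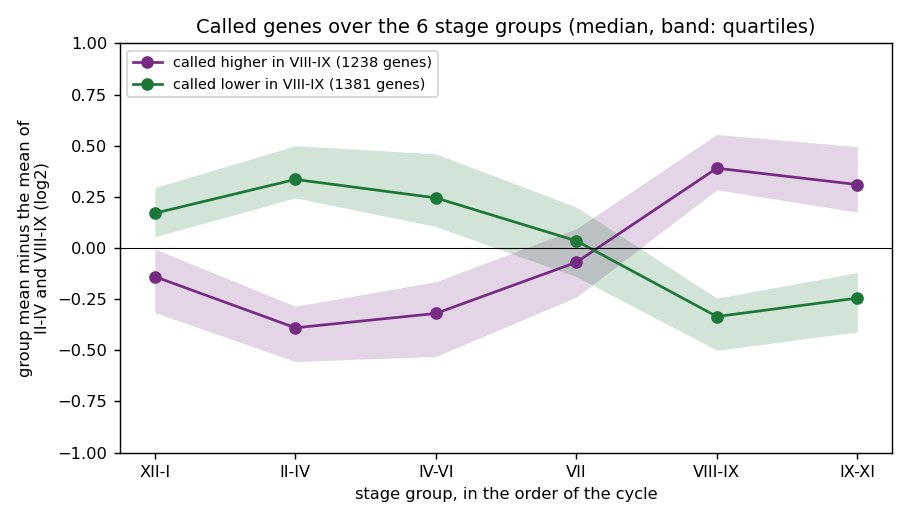
The y axis gives each called gene's group mean minus the mean of its II-IV and VIII-IX levels (log2), and the x axis the 6 stage groups. Lines are medians and bands quartiles, purple for 1238 genes higher and green for 1381 lower in VIII-IX, and both medians lie near 0 in VII (-0.07 and 0.04).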

How the data were processed

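Whole-testis total RNA was hybridized to Affymetrix Mouse Gene ST arrays, 2 per stage group, after amplification from 100 ng and labelling of 3.75 ug of cDNA, per the labels. The authors deposited 1 intensity value per probe set, made with RMA per the submitters' processing notes (background correction, quantile normalization, summary over probes); no version is named in the sources read. The deposited intensities were linear, from 24.97 to 21760, with array medians of 296.9 to 309.1, and were transformed to log2 with nothing added. Since the arrays were scaled alike, all differences are relative to the other transcripts, and a change in total RNA would not be seen. Precision is limited by the number of arrays.

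The array annotation gave 1 symbol to 21797 of 28853 probe sets, several to 1613 and none to 5443. Those with 1 symbol gave 19946 genes, by the brightest set for the 999 genes with more than 1. Symbols were compared with RefSeq of GRCm38.p6 (0 changed; 99 IDs not found). No build is named for the array annotation, and the coordinates printed are those of the RefSeq promoters.

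With limma 3.58.1 in R 4.3.3 (lmFit, eBayes), 6 group means were estimated from all 12 arrays, with the contrast VIII-IX minus II-IV and Benjamini-Hochberg adjustment over all genes at 0.05. Named genes were the 15 largest called differences in each direction without overlap between samples (predicted genes, receptor families and small RNAs passed over), up to 4 called members per list and direction, and a fixed set of retinoid, germ cell and somatic genes, of which Rhox5 and Insl3 were not analysed here. Further list members are named where they complete a count. The members and the 27 lists were chosen with earlier results of these data known. Some genes, such as Stra8 and Spag6, are in several lists, so the shares of lists are not independent. Of the list entries, 79 matched no measured gene. Alternatives were a further quantile normalization, a common median, a filter on dim genes, all probe sets, the 4 arrays alone, a mean-variance trend, array weights, a block on sample number and leaving out arrays. No batch is given in the labels, and groups of 2 allow no check for single outlying samples.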

Additional observations from a re-analysis of the deposited data

How the results depend on the processing

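The 2619 calls stayed within 1.5 times under further quantile normalization, a common median, the filter on dim genes, all probe sets and the mean-variance trend. With every probe set tested, Myo18b had sets called in both directions. Calls fell to 1193 with only the 4 arrays in the fit, which leaves 2 residual degrees of freedom, to 1106 with array weights (485 higher and 621 lower) and to 317 when sample 2 of both VIII-IX and IX-XI was left out (198 higher and 119 lower, 62.5% higher against 47.3%); the cause was not tested for the last 2. Leaving out 1 array gave 209 to 3038 calls, and 33.5% were higher without VIII-IX sample 1. Leaving out either array of a group outside the comparison changes only the spread, so both give the same count (1881 for IX-XI). Sample numbers were not taken to pair the samples, since same-numbered deviations correlated from -0.354 to 0.541 over 15 pairs of groups, but the highest of these, 0.541, was that of II-IV and VIII-IX. With the replicate block there were 2964 calls (1533 higher, 1431 lower), 2533 shared with the fit without it. Over 158 named genes and their 3312 gene and alternative pairs, 2606 stayed on their side of the threshold, 699 lost the call, 7 gained one and 0 reversed; the fits without an array of II-IV or VIII-IX, which leave 1 sample that is assumed to vary like the other groups, account for many of the losses. The medians of 12 of 29 lists, X- and Y-linked genes included, changed sign in at least 1 alternative. The files used here give no background level, so the only check on dim signals was the fit without the dimmest 30% of genes, with 2593 calls.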

Other observations

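Some gene families with several called members were noticed after their values were seen and are given as values only. Over all genes, 6.21% were called higher and 6.92% lower. Of 38 measured Prss serine protease genes, 6 were called higher in VIII-IX and 1 lower, and the family's median was 0.04 log2. Prss37 read 10.35 and 10.18 in II-IV against 12.65 and 12.76 in VIII-IX (2.43 log2; adjusted p = 0.016 in limma), and Prss51 read 8.79 and 9.06 against 11.14 and 11.07 (2.18; adjusted p = 0.0099). Prss58 had II-IV samples far apart, at 9.32 and 10.79 against 12.17 and 12.12 (2.09; adjusted p = 0.017), and Prss55 differed by 1.32 (adjusted p = 0.017). Of 18 Asb genes, adaptors of ubiquitin ligases, 6 were higher and 0 lower, with a median of 0.24 log2, and Asb5 read 7.82 and 8.24 against 9.51 and 9.13. Mgat glycosyltransferases had 4 higher and 0 lower calls among 11, with a median of 0.26 log2. The kinase genes Smok2a, at 7.52 and 7.01 against 10.08 and 9.81 (2.68; adjusted p = 0.0049), and Smok2b, at 7.29 and 7.24 against 9.64 and 9.39 (2.25; adjusted p = 0.0014), were both called in all 4 fits without an array of the comparison, though their probe sets may read the same copies.

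The Ift and Cfap families, of cilia and flagella, had most calls in the other direction. Of 14 Ift genes, which carry cargo along the growing flagellum, 5 were lower in VIII-IX and 0 higher. The median of the 14 was -0.01 log2, near the -0.025 of all genes, so the family as a whole was not shifted. Among those called, Ift81 differed by -0.83 log2, Ift57 and Ift43 by -0.60 each, and Ift52 by -0.37. Of 31 Cfap genes, 8 were lower and 1 higher, with a median of -0.12 log2. Of 11 Hdac genes, with a median of -0.18 log2, 3 were lower and 1 higher, Hdac11. The histone deacetylases Hdac1 (-0.41; adjusted p = 0.026 in limma), Hdac2, at 10.55 and 10.41 against 9.85 and 9.78 (-0.66; adjusted p = 0.010), and Hdac3 (-0.29; adjusted p = 0.045) were lower. Of 12 Septin genes, with a median of -0.12 log2, 4 were lower and 0 higher.

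Other genes called in all 4 of those fits, also chosen after their values were seen, included 3 higher and 2 lower in VIII-IX. Pip5kl1, a lipid kinase-like protein, read 7.80 and 7.59 against 10.76 and 10.13 (2.75 log2), Kcnab3, a potassium channel subunit, read 7.46 and 7.75 against 10.48 and 10.02 (2.64), and Timp4, a metalloproteinase inhibitor, read 6.94 and 7.16 against 9.71 and 8.91 (2.26; adjusted p = 0.0049 in limma). Scp2, a sterol carrier, read 10.06 and 9.68 against 7.29 and 7.18 (-2.63), and Zan, zonadhesin of the sperm head, read 10.89 and 10.92 against 8.67 and 7.89 (-2.63). In each of these 5 genes the gap between groups exceeded the gap between partners.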
